A study of Rattus norvegicus with 18 samples.

Results

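The change in rat lung between 6 and 20 hours after the last exposure to cigarette smoke was read from 12 of the 18 samples of a microarray series. The 12 samples were those labelled 6 h or 20 h, 6 at each hour, taken by their labels. The comparison and the gene lists were chosen with earlier results of these data known. Rats breathed diluted smoke by nose containing 300 (the low dose) or 600 (the high dose) µg of particulate matter in each litre, 1 hour at a time, 2 times a day on 5 days a week, for 2, 7 or 13 weeks, and control rats breathed conditioned fresh air. Each condition had 1 sample, whole-lung RNA pooled from 4 smoke-exposed rats and set against a pool of air-exposed rats on 2-colour arrays. The sources used here do not name strain, sex or age. Both doses of one number of weeks and one hour were read against one air pool, so the 2 doses were averaged before any test. The 6 other samples, collected at 2 hours, are given only as levels beside the result.

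A level here is a log2 ratio of smoke over air, so 0 means equal to air and 1 means a doubled signal. A difference is the level at 20 hours minus the level at 6 hours. Each gene has 3 differences, for 2, 7 and 13 weeks, and their mean is given with its standard error (SE, n = 3) from a fit in limma across all genes. The fit draws each gene's spread towards a spread shared by all genes. The SE can therefore be smaller or larger than that of the 3 differences alone. Each combination of weeks and hours had its own air pool, and whether a changed ratio comes from the smoke pools or the air pools cannot be told apart. In whole lung, fewer cells of a type and less RNA per cell cannot be told apart either. Because the values are ratios, they do not show how abundant lung markers were. The lung genes Sftpa1, a surfactant protein, and Ager, a marker of flat alveolar cells, were both measured, with differences of 0.00 and 0.03.

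Smoke carries polycyclic aromatic hydrocarbons that bind the aryl hydrocarbon receptor (AhR), a transcription factor that switches on enzymes of their oxidation and further metabolism, such as Cyp1a1. The circadian clock is a loop in which Bmal1 drives its own repressors and a set of output factors, among them Dbp, over the day. Lung cells also answer unfolded protein in the endoplasmic reticulum (ER) by making chaperones such as Hspa5.

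The promoters of 5 genes that changed are shown because each holds a textbook control motif of the clock or of the ER stress response. They are RefSeq sequences of build GRCr8, 250 bases up to the transcription start, read 5′ to 3′ on the strand of the gene. Capitals mark the motif. In Bmal1 (chr1:176766078-176766327, plus strand) the motif is TAGGTCA, the element bound by ROR and REV-ERB receptors, and it begins 16 bases before the start. In Tef (chr7:115206577-115206826, plus strand) and Bhlhe40 (chr4:143174200-143174449, plus strand) it is the E-box CACGTG, bound by the Bmal1 protein with its partner, 198 and 220 bases before the start. In Hspa5 (chr3:38452766-38453015, plus strand) and Hsp90b1 (chr7:23012294-23012543, minus strand) it is the ER stress element, CCAAT and CCACG with 9 bases of any kind between them, which Hspa5 holds 1 time, 43 bases before the start. Hsp90b1 holds it 2 times, at 176 bases as read and at 72 bases on the reverse strand.
Bmal1: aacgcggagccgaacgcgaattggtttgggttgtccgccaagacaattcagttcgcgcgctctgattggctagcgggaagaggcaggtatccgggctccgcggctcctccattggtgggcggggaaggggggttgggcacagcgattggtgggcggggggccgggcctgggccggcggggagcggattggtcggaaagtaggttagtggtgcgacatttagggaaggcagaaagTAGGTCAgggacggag
Tef: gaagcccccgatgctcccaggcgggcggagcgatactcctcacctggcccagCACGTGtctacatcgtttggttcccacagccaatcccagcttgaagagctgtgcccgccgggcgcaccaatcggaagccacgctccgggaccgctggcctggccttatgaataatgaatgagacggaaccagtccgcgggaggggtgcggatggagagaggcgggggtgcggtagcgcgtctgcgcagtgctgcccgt
Bhlhe40: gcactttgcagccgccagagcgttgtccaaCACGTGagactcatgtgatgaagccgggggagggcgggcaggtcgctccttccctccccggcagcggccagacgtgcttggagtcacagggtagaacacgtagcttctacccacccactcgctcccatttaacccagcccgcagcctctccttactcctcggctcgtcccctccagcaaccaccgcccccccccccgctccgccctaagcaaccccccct
Hspa5: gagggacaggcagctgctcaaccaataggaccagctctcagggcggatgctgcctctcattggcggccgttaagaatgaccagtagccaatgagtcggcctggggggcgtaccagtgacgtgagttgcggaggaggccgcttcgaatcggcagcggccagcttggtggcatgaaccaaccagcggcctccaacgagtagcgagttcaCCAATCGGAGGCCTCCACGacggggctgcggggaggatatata
Hsp90b1: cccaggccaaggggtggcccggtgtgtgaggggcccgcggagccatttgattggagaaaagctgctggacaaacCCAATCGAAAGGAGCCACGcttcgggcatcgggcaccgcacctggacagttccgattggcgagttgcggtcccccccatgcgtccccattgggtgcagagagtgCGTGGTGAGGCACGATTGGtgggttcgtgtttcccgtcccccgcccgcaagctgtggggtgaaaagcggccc

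Between 6 and 20 hours, Cyp1a1, Aldh3a1 and Nqo1 of the AhR response came down towards air, and the clock genes Bmal1, Dbp, Nr1d2, Tef and Bhlhe40 had means on opposite sides of air at 6 and at 20 hours. The ER chaperones Hspa5, Hsp90b1, Pdia4 and Hyou1 fell, and the collagens Col1a1, Col15a1 and Col3a1 and the enzymes Sult1a1, Ephx1, Cyp2a3 and Por rose. Of 4616 genes with a value, 3813 had a value in all 12 samples and were tested. Of these, 88 (2.31%) passed an adjusted p of 0.05 in limma's two-sided test with Benjamini-Hochberg adjustment, with 56 falls (1.47%) and 32 rises (0.839%). The difference had 1 sign in all 3 numbers of weeks for each of the 88 genes, and in 6 of 6 pairs of samples of the same dose and weeks for 80. Over all 3813 genes tested these counts were 1526 and 404. The test favours genes whose differences share a sign, so the counts are no separate support. The size was at least 1.5-fold for 34 genes and at least 2-fold for 7, namely Cyp1a1, Bmal1, Aldh3a1 and Nqo1 among the falls and Dbp, Nr1d2 and Tef among the rises. The 6 samples at 6 hours and the 6 at 20 hours did not overlap for 43 of the 88 (27 falls and 16 rises), against 73 (1.91%) of all genes tested, 40 falls (1.05%) and 33 rises (0.865%). The count rests on few samples: 1 gene, Bmal1, passed without 13 weeks, 36 passed without 2 weeks and 54 passed without 7 weeks. With the weeks left unpaired 46 genes passed.

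The 56 falls and 32 rises mostly moved across the level of air. Of the falls, 40 ended on the other side of air at 20 hours, and of the rises 26. The distance from air went down for 27 falls and 17 rises, went up for 42 genes and was equal for 2. Over all 3813 genes tested, 1462 lay on the other side of air at 20 hours. Among these 3813 the distance from air went down for 877 genes above air at 6 hours and for 825 below it. It went up for 1953 and was equal for 158. The split by distance among the falls and rises was close to this background, and is no separate result about them. The crossing of air is no separate result either, since the genes were picked by the same difference between the hours. Just inside the threshold stood C1qtnf7 (adjusted p = 0.047) and Tmsb10 (0.0496), and just outside Dlg1 and Clic3 (both 0.0507), all by limma.

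**Figure D1:**
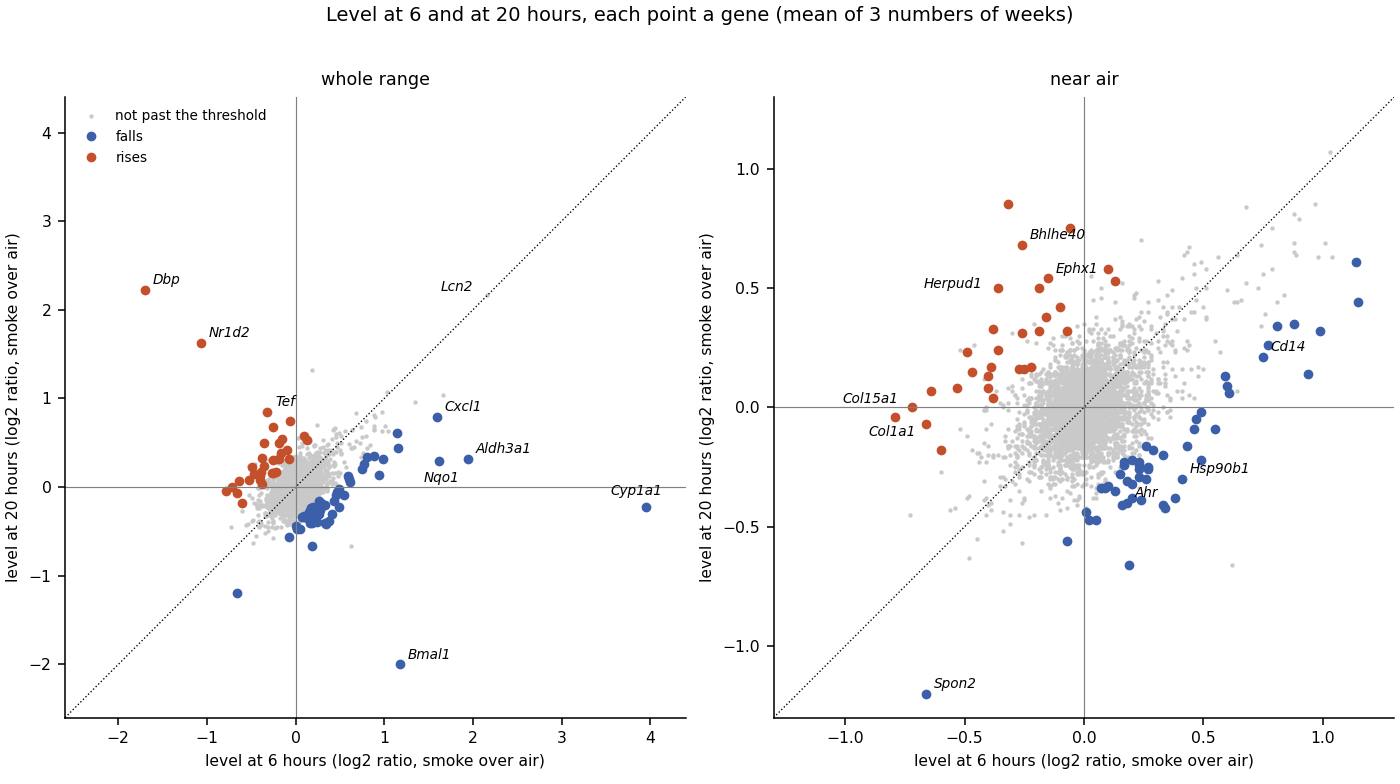
Level at 6 hours (x axis) against level at 20 hours (y axis) for the 3813 genes tested, both log2 ratios of smoke over air averaged over 2, 7 and 13 weeks; the right panel enlarges the region near air and the dotted line marks equal levels. The 56 falls (blue) lie below the line and the 32 rises (red) above it, with Cyp1a1 at 3.95 and -0.22, Dbp at -1.70 and 2.22, and Lcn2, which did not pass, on the line at 2.16 and 2.17.

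The AhR enzymes held the largest fall. Cyp1a1, a cytochrome P450 that oxidises aromatic hydrocarbons, had levels at 6 hours of 4.53 and 4.00 (low and high dose) after 2 weeks, 4.03 and 4.07 after 7 weeks and 3.72 and 3.32 after 13 weeks. At 20 hours they were -1.36 and -1.09, -0.10 and 0.10, and 0.62 and 0.51. All 6 samples at 6 hours were far above air and all 6 at 20 hours lay near or below it, with no overlap. The difference was -4.17 ± 0.33 (SE, n = 3; limma adjusted p = 4.36e-05), a 17.9-fold fall. It was -5.49 after 2 weeks, -4.05 after 7 weeks and -2.96 after 13 weeks, and whether it depends on the weeks was not tested. Cyp1a1 lost its call with a robust prior (limma adjusted p = 0.191) and without the 13-week samples (0.0532).

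Aldh3a1, an aldehyde dehydrogenase, stood at 2.25 and 1.94, 1.70 and 1.74, and 2.03 and 2.06 at 6 hours, in the same order of weeks and doses. At 20 hours it stood at 0.12 and 0.70, 0.33 and 0.30, and 0.48 and -0.04. The groups did not overlap, and the fall was 3.11-fold (-1.64 ± 0.10, limma adjusted p = 6.03e-06). Nqo1, a quinone reductase, held a narrow range of 1.48 to 1.73 over the 6 samples at 6 hours and of 0.00 to 0.57 at 20 hours, with a 2.5-fold fall (-1.32 ± 0.09, limma adjusted p = 1.43e-05). The receptor gene Ahr itself was above air in 6 of 6 samples at 6 hours, from 0.04 to 0.32, and below air in 6 of 6 at 20 hours, from -0.58 to -0.18. Its fall was small, -0.58 ± 0.09 (limma adjusted p = 0.00784), and was lost at either dose alone and without the 13-week samples.

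Of the 6 tested members of the AhR list these 4 fell and none rose, with a median difference of -0.95 against -0.01 over all genes tested. The other 2 were Cyp1b1, a related P450, which lay near air at both hours (difference -0.03), and the glucuronosyltransferase Ugt1a6 (-0.19 ± 0.10). At 2 hours the levels had been 5.74 for Cyp1a1, 5.33 for Aldh3a1 and 2.71 for Nqo1, each a mean over weeks. Over the 12 samples the genes that correlated most with Cyp1a1 were Nqo1 (Pearson r = 0.96), Bmal1 (0.95), Dtx4 (0.94), Aldh3a1 (0.92) and Ms4a7 (0.89). The 12 samples share air pools in pairs, and r is given as a description. They are also the samples in which the falls were found, so a gene with a clear fall has a high r with Cyp1a1. Shared regulation was not tested.

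Few other genes of oxidative stress defence moved with them. Of 22 tested members of the NRF2 list 1 fell, the mitochondrial superoxide dismutase Sod2 (-0.53 ± 0.12), and none rose, with a median of -0.09. Sod2 lost its call in 10 of 15 settings. Over all genes tested 1.47% fell and 0.839% rose, with a median of -0.01, and each list count in this report stands beside these shares. A single call in a list is no result about that list. The haem oxygenase Hmox1 had a difference of -0.15, the glutamate-cysteine ligase Gclc of -0.17, the thioredoxin reductase Txnrd1 of -0.24 and the metallothionein Mt1 of 0.16, and none of these passed. Their mean levels at 2 and at 6 hours were 1.03 and 0.38 for Hmox1, 0.93 and 0.28 for Gclc, 0.85 and 0.34 for Txnrd1. For Mt1 they were 0.78 and 0.68. The change from 2 to 6 hours was not tested here. Among 12 glutathione S-transferases, Gstt2 (-0.50 ± 0.09) and Gstp1 (-0.47 ± 0.10) fell without overlap between the hours, and the list's median was 0.03. Ggt1, which splits glutathione outside the cell, fell by 0.68 on the log2 scale, from 0.99 to 0.32.

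Of 17 other tested genes of foreign-compound metabolism 4 rose, none fell and 13 did not pass, with a median of 0.14. The sulfotransferase Sult1a1 lay below air in 6 of 6 samples at 6 hours, from -0.76 to -0.04, and above air in 5 of 6 at 20 hours, from -0.25 to 0.64. Its difference was 0.71 ± 0.10 (limma adjusted p = 0.00344). The epoxide hydrolase Ephx1 lay between -0.42 and 0.03 at 6 hours and between 0.16 and 0.88 at 20 hours with no overlap (0.70 ± 0.12). The P450 Cyp2a3 (0.61 ± 0.09) and Por, which passes electrons to P450 enzymes (0.57 ± 0.12), also rose. Por lost its call in 10 of 15 settings, and Cyp2a3 and Ephx1 in 6 each. Alas1, the first enzyme of haem synthesis and a member of none of these lists, rose by 0.54 ± 0.09.

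**Figure D2:**
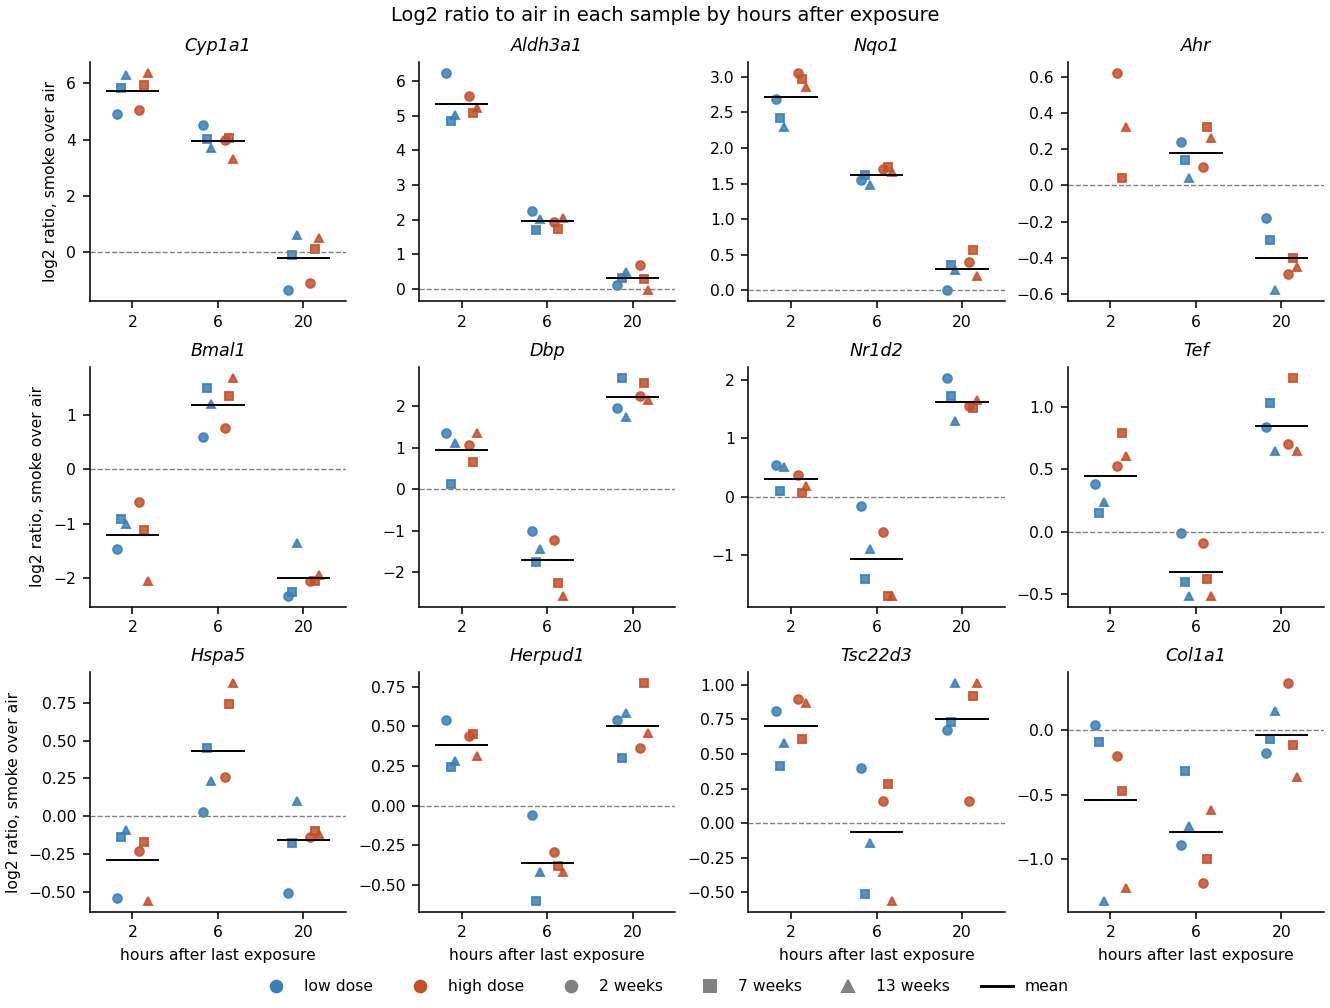
Log2 ratio of smoke over air (y axis) at 2, 6 and 20 hours after the last exposure (x axis) for 12 genes, with 1 point per sample, coloured by dose and shaped by weeks, and a bar at the mean. Cyp1a1, Aldh3a1 and Nqo1 step down at each hour, while Bmal1, Dbp, Nr1d2 and Tef stand on one side of air at 6 hours and on the other at 20 hours; Ahr has too few values at 2 hours for a mean.

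Dbp, Bmal1 and Nr1d2, all clock genes, had the largest differences after Cyp1a1. Bmal1, a core activator of the clock, stood at 0.60 and 0.75, 1.49 and 1.35, and 1.20 and 1.67 at 6 hours. At 20 hours it stood at -2.32 and -2.06, -2.25 and -2.06, and -1.36 and -1.94. Every sample was above air at 6 hours and below it at 20 hours. The fall was 9.03-fold (-3.17 ± 0.13, n = 3, limma adjusted p = 1.9e-07), and Bmal1 was the 1 gene that kept its call in all 15 alternative settings.

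Dbp, an output factor of the clock, moved in the opposite direction. Its levels were -1.0 and -1.22, -1.74 and -2.25, and -1.43 and -2.56 at 6 hours, and 1.96 and 2.24, 2.67 and 2.56, and 1.73 and 2.14 at 20 hours. Every sample was below air at 6 hours and above it at 20 hours, and the rise was 15.1-fold (3.92 ± 0.19, limma adjusted p = 1.07e-06). Nr1d2, a REV-ERB receptor that represses Bmal1, ranged from -1.69 to -0.15 at 6 hours and from 1.29 to 2.03 at 20 hours, a 6.5-fold rise (2.70 ± 0.15, limma adjusted p = 2.76e-06). Tef, a factor of the same family as Dbp, lay between -0.51 and -0.01 and then between 0.65 and 1.23 (1.17 ± 0.12). Bhlhe40, a repressor in the clock, lay between -0.47 and 0.03 and then between 0.32 and 0.99 (0.94 ± 0.12). None of these overlapped between the hours.

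Of 8 tested clock genes 4 rose and 1 fell, with a median of 0.58. The kinases Csnk1d and Csnk1e, with differences of -0.12 and -0.11, did not pass. Nr1d1, the other REV-ERB receptor, had a difference of 0.21 ± 0.10 and did not pass (limma adjusted p = 0.303). Its gene overlaps Thra on the chromosome, and whether its probes also read Thra was not tested. At 2 hours the levels were -1.20 for Bmal1, 0.95 for Dbp, 0.30 for Nr1d2 and 0.45 for Tef, so in each of them the 2-hour mean lay on the same side of air as the 20-hour mean and the 6-hour mean on the other. Per1 and Per2 were not analysed here. Without the 13-week samples the limma adjusted p of Dbp was 0.0564.

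In the promoters of RefSeq, 71 of the 88 genes were found, and 17, Cyp1a1 and Aldh3a1 among them, were not searched. Shares are given over the promoters of the 3101 tested genes found, and over all 27457 promoters. The search covered both strands from 250 bases before the start to 50 after it. The E-box stood in 8 of the 71, in 8.61% of tested genes and in 6.65% of all. TAGGTCA stood in 3 (Bmal1, Pcdh12 and Por), in 1.26% of tested genes and in 2.6% of all. The D-box TTANGTAA, bound by Dbp and Tef, stood in 1 (Cd14), in 1.23% of tested genes and in 2.19% of all. The xenobiotic response element TNGCGTG, bound by AhR, stood in 2 (Abcc4 and Rbm3), in 7.87% of tested genes and in 5.12% of all. The antioxidant response element TGACNNNGC stood in 9, in 14.9% of tested genes and in 12.2% of all. The ER stress element stood in 2, Hspa5 and Hsp90b1, in 0.355% of tested genes (11 promoters) and in 0.0765% of all. A match is a description of the letters and no evidence of binding.

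Of 31 tested genes of heat shock and the unfolded protein response, 5 fell, 1 rose and 25 did not pass, with a median of -0.16. Hspa5, the main ER chaperone, had levels of 0.03 and 0.26, 0.45 and 0.74, and 0.23 and 0.88 at 6 hours, and of -0.51 and -0.14, -0.18 and -0.10, and 0.10 and -0.12 at 20 hours. All 6 samples were above air at 6 hours and 5 of 6 below it at 20 hours, and the groups overlapped through the low-dose samples alone. The difference was -0.59 ± 0.09 (limma adjusted p = 0.00859). Hsp90b1, its partner chaperone of the HSP90 family, ranged from 0.19 to 0.70 and then from -0.58 to -0.04 (-0.71 ± 0.09). Pdia4, which forms disulfide bonds, fell by 0.53 on the log2 scale and Hyou1, an ER chaperone of the HSP70 family, by 0.49. Hsph1, a co-chaperone of the cytosol, fell by 0.64.

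Herpud1, which takes part in the breakdown of ER proteins, was the 1 rise of the list. It was below air in 6 of 6 samples at 6 hours, from -0.60 to -0.06, and above air in 6 of 6 at 20 hours, from 0.30 to 0.77 (0.86 ± 0.10, limma adjusted p = 0.00188). In the whole list 27 of 31 genes had a difference below 0, against 1988 of all 3813 genes tested. The ER chaperones Calr (-0.09) and Canx (-0.14) and the disulfide isomerases Pdia3 (-0.40) and Pdia6 (-0.17) did not pass. The inducible heat shock gene Hspa1a had a difference of -0.03. Hspa5 lost its call with the weeks unpaired, at either dose alone and without the 13-week samples. Hyou1 lost its call in 8 of 15 settings and Pdia4 in 6.

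Of 24 tested matrix genes and proteases 3 rose, 1 fell and 20 did not pass, with a median of 0.15. Over all genes tested 0.839% rose and 1.47% fell, with a median of -0.01. Col1a1, a chain of the main fibrillar collagen, had levels of -0.89 and -1.18, -0.32 and -1.0, and -0.74 and -0.62 at 6 hours and of -0.18 and 0.36, -0.07 and -0.12, and 0.15 and -0.36 at 20 hours. All samples were below air at 6 hours and most lay near it at 20 hours, and the high-dose sample of 13 weeks at 20 hours lay below the low-dose sample of 7 weeks at 6 hours. The difference was 0.76 ± 0.12 (limma adjusted p = 0.00859). Col15a1, a collagen of basement membranes, ranged from -0.94 to -0.47 and then from -0.22 to 0.23 (0.72 ± 0.10), and Col3a1 rose by 0.43 ± 0.10, a call lost in 12 of 15 settings. Mfap5, a protein of elastic microfibrils, rose by 0.59 ± 0.10, and the metalloproteinase Mmp23 by 0.48 ± 0.10. Spon2, a secreted matrix protein, was the 1 fall of the list, from -0.66 to -1.20 (-0.54 ± 0.09), a call lost in 8 of 15 settings. Differences were below 0 for 8 of the 24, against 1988 of all 3813 genes tested. Col1a2 (0.44, limma adjusted p = 0.052) stood just outside the threshold.

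Glucocorticoid-responsive genes gave 2 rises among 16 tested and no fall, with a median of 0.21. Tsc22d3, which dampens inflammatory signalling, ranged from -0.56 to 0.40 at 6 hours and from 0.16 to 1.01 at 20 hours. The groups overlapped, and the difference (0.81 ± 0.18, limma adjusted p = 0.0398) was 0.14 after 2 weeks, 0.94 after 7 weeks and 1.36 after 13 weeks. The transcription factor Klf9 ranged from -0.86 to -0.12 and then from 0.11 to 0.70 without overlap (0.71 ± 0.11). Fkbp5, a classical target, had a difference of 0.36 ± 0.17 and did not pass. The call of Tsc22d3 was lost in 7 of 15 settings.

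**Figure D3:**
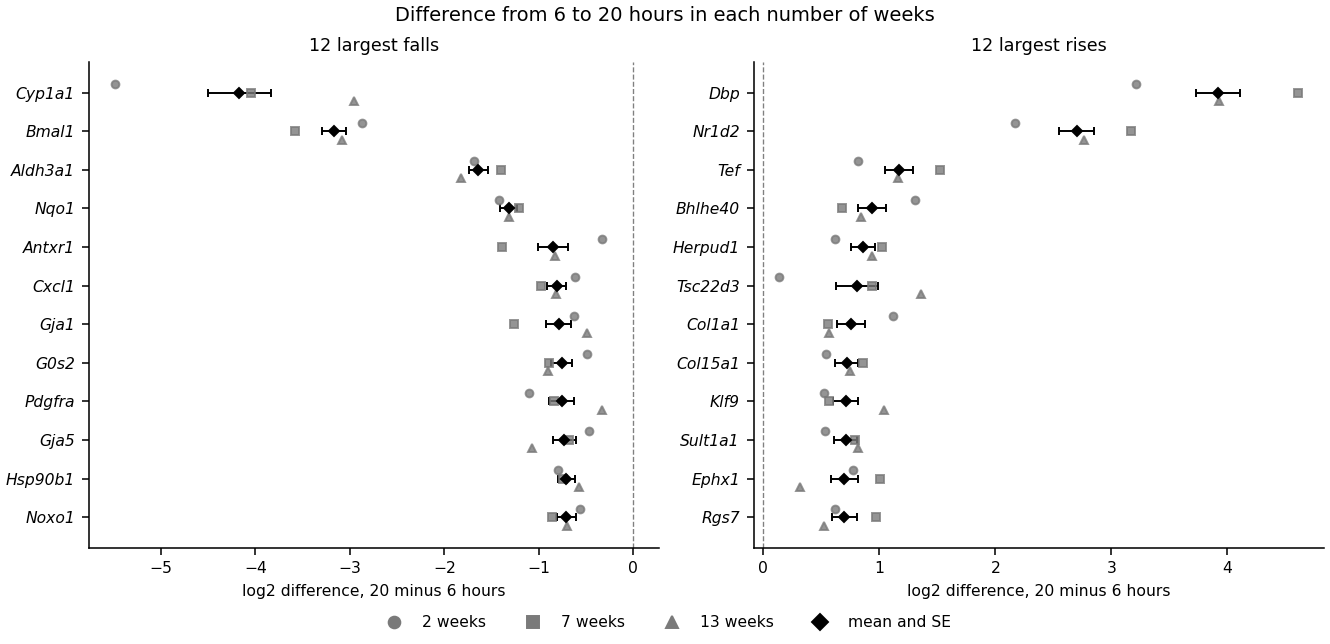
Difference in log2 ratio, 20 minus 6 hours (x axis), for the 12 largest falls and the 12 largest rises past the threshold. Grey symbols are the differences after 2, 7 and 13 weeks and black diamonds their mean with its SE from the limma fit. The 24 genes were chosen to have all 3 differences on one side of 0, a rule that each of the 88 genes met. Cyp1a1, Bmal1, Dbp and Nr1d2 stand far from the rest.

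Of 14 tested chemokines and cytokines 1 fell, Cxcl1, and none rose, with a median of -0.10. Cxcl1, which attracts neutrophils, had levels of 0.96 and 1.72, 1.53 and 1.75, and 1.14 and 2.46 at 6 hours and of 0.51 and 0.93, 0.52 and 0.80, and 0.71 and 1.24 at 20 hours. All 12 samples were above air and the groups overlapped, and the fall was 1.75-fold (-0.81 ± 0.10, limma adjusted p = 0.00221). Il1b (-0.37 ± 0.10, limma adjusted p = 0.0795) and Ccl2 (-0.12) did not pass. Of 16 tested acute phase and complement genes none passed in limma. An unadjusted limma p under 0.05 was found for 8 of them, against 646 of all 3813 genes tested. C3 stood at -0.39 and Pigr, which carries antibodies across epithelium, at -0.38. Lcn2, a siderophore-binding defence protein, lay at 2.16 at 6 hours and 2.17 at 20 hours, a difference of 0.01 ± 0.10. Noxo1 and Cybb, parts of superoxide-producing oxidases, fell by 0.71 and 0.51 on the log2 scale.

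Cell markers were read for the cell types a whole lung holds. Of 7 tested neutrophil and mast cell markers 2 fell, S100a8 (-0.51 ± 0.11) and Fcnb (-0.63 ± 0.14), and their median level went from 0.06 to -0.42 after 2 weeks, from 0.27 to 0.25 after 7 weeks and from 0.60 to 0.35 after 13 weeks. The fall of S100a8 had 1 sign in 4 of 6 pairs, was -0.05 at the low dose alone and lost its call in 11 of 15 settings, and Fcnb lost its call in 9. S100a9, its partner, had a difference of -0.62 and did not pass (limma adjusted p = 0.0544). Of 16 macrophage markers 2 fell, the endotoxin receptor Cd14 (-0.53 ± 0.09) and the lipid scavenger receptor Cd36 (-0.55 ± 0.09), while Cd68 (-0.11) and Lgals3 (0.04) did not pass. The part of cell numbers in these differences was not tested.

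In the other marker lists 1 gene passed. Vcam1, an adhesion molecule of vessels, fell by 0.43 on the log2 scale among 20 tested endothelial and smooth muscle markers. Its call was lost in 11 of 15 settings. None passed among 13 lymphocyte, 7 alveolar, 4 airway, 8 striated muscle or 3 blood markers, whose medians were -0.02, 0.09, 0.15, 0.23 and 0.15 and of which 2, 1, 2, 2 and 1 had an unadjusted p under 0.05 in limma. Of 10 interferon and antigen presentation genes none passed (3 had an unadjusted p under 0.05), and Ifit1 had the largest difference, 0.76 ± 0.18 (limma adjusted p = 0.051). None of 17 cell cycle genes, 15 immediate early genes (Fos at 0.00) or 11 reference genes passed in limma, with 0, 6 and 2 at an unadjusted p under 0.05. Over all 3813 genes tested, 646 had an unadjusted limma p under 0.05, the share beside which these counts stand. Of 26 genes of p53, DNA damage and apoptosis 1 fell, Gadd45g (-0.53 ± 0.09), and of 25 lipid genes 1, Cd36.

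**Figure D4:**
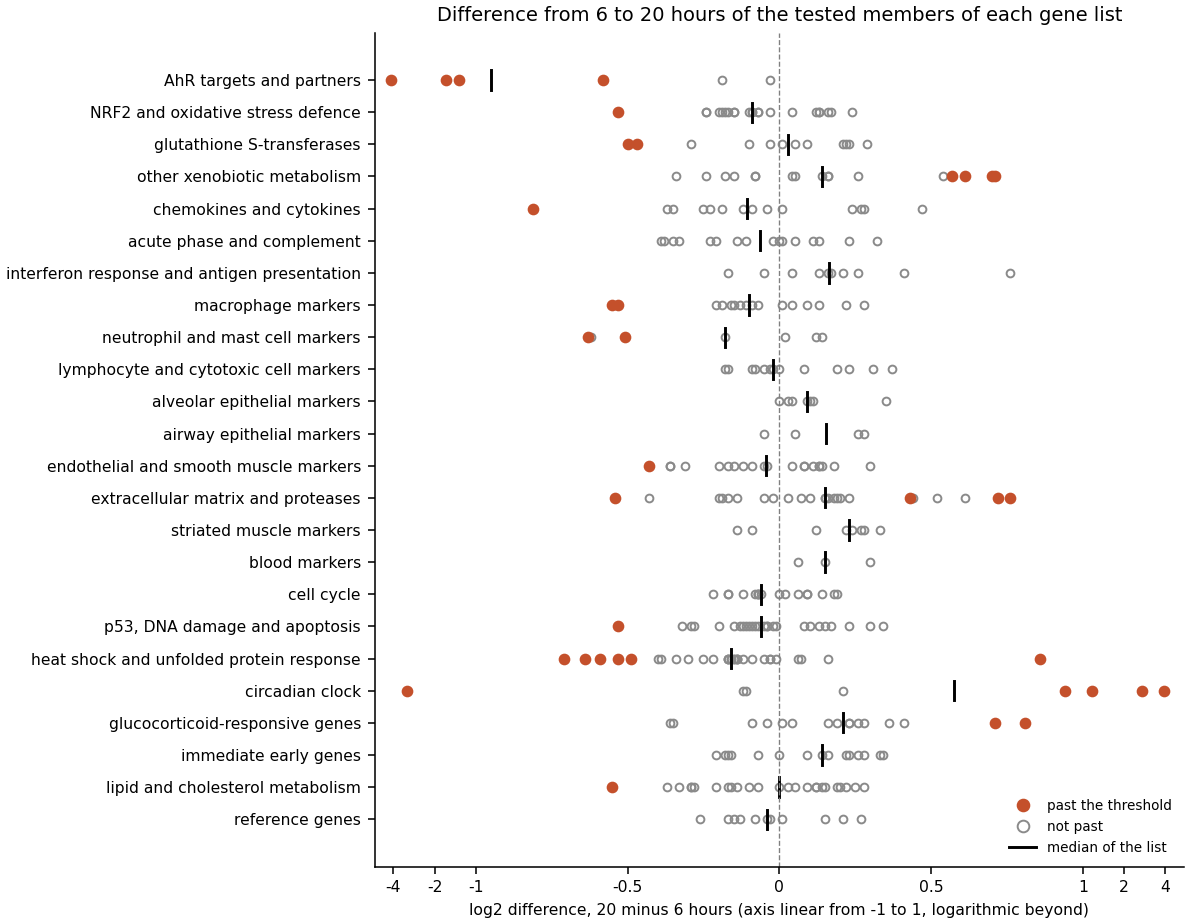
Difference in log2 ratio, 20 minus 6 hours (x axis, linear between -1 and 1 and logarithmic beyond), for the tested members of 24 gene lists (rows); red points passed the threshold, open points did not, and the bar is the median of the list. The AhR list has its median at -0.95 and the clock list at 0.58, while the other medians lie between -0.18 and 0.23.

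The remaining large falls belonged to genes of several kinds. Gja1 and Gja5, which form gap junctions, fell by 0.79 and 0.73 on the log2 scale, both without overlap between the hours. Antxr1, a receptor that binds collagen, fell by 0.85, Pdgfra, a growth factor receptor of fibroblasts, by 0.76, and G0s2, an inhibitor of fat breakdown, by 0.76. Rgs7, a regulator of G protein signalling, rose by 0.70 ± 0.11, the inflammatory caspase Casp4 by 0.69 ± 0.09 and the kinase Syk by 0.62 ± 0.11. The samples of Casp4 and Rgs7 did not overlap between the hours and those of Syk did.

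Whether the change differed between the doses was tested on the same 12 samples, where the shared air pool cancels in high minus low dose. None of 3813 genes (0.0%) passed in limma after adjustment, and 98 had an unadjusted p under 0.05. The smallest p belonged to Slpi, a protease inhibitor of airway fluid, whose difference was larger by 0.87 ± 0.20 at the high dose (limma adjusted p = 0.998). Dbp was larger by 0.81 ± 0.23 and S100a8 stood at -0.93 ± 0.25. At the low dose alone 10 genes passed for the change from 6 to 20 hours, which were Aldh3a1, Bhlhe40, Bmal1, Cyp1a1, Dbp, Herpud1, Nqo1, Nr1d2, Rgs7 and Tef, and at the high dose alone 17 passed, 15 of them among the 88.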

How the data were processed

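The authors deposited 1 table of log2 ratios, smoke-exposed (Cy5) over air (Cy3) per the labels, with 11994 rows. The scanner, the background correction, any filter on spots and the normalization were not stated in any source used. Signal over background is unknown, and the few arrays limit precision. Of the 257 values under -1, 100% equal log2 of a 2-decimal ratio. Sample medians lie between -0.01 and 0.01, and 12.9% of cells are empty (a sample has a value in 78.8% to 94.7% of rows). Direction is taken from the channel labels.

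Each probe fills a pair of rows (5997 pairs, largest difference 0.01), which were averaged, and 32 equal probes of a gene were merged, leaving 5924 probes. Probes of one gene were averaged. Names came from the platform annotation, updated through the GRCr8 gene table (9614 of 9658 named rows matched).

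Low and high dose were averaged, and 3 differences per gene (20 minus 6 hours, weeks paired) were tested against 0 with limma 3.58.1 (R 4.3.3, statmod 1.5.0, eBayes default, two-sided, prior df 8.89, residual df 2). The weeks serve as replicates. The SEs and p-values combine a gene's spread between numbers of weeks with a prior spread shared by all genes. With prior df 8.89 against residual df 2, most of the weight lies on the prior. The spread between numbers of weeks holds pool error and real change over weeks. Pairing comes from the labels' weeks of exposure. The fit was tested on simulated data. Python 3.11.15, numpy 2.4.6, pandas 2.3.3 and matplotlib 3.10.9 made tables and figures.

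The comparison, its members and the 24 gene lists were chosen with earlier results of these data known. Named genes are the 12 largest falls and rises past the threshold, up to 3 members per list (otherwise 2 as values), a fixed set of smoke, clock and stress genes, and the 5 most like Cyp1a1. Ggt1, Por, Alas1, Casp4, Syk, Mfap5, Mmp23, Cybb, Hyou1, Pdia4, Csnk1d, Csnk1e, Col1a2, Calr, Canx, Pdia3, Pdia6, Cd68, Lgals3, Sftpa1, Ager and the genes near the threshold or with motifs were chosen after their values were seen.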

Additional observations from a re-analysis of the deposited data

How the results depend on the processing

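Each of the 88 genes kept its direction in the 15 settings in which it was refitted, and 1 (Bmal1) kept its call in all 15, 7 lost it in 1 and 34 lost it in more than 7. The kept direction was largely fixed in advance and is no separate support. Settings that change only the pairing, the random block or the prior leave the mean difference as it was. Leaving out a number of weeks cannot reverse a gene whose differences share a sign in all weeks, as those of each called gene do. Nor can either dose alone reverse the 80 genes with 1 sign in 6 of 6 pairs. Only among the others was a reversal at a dose alone possible. The paired weeks gave 88 calls, and without the replicate block (weeks unpaired) 46 genes passed, all among the 88. With hours and weeks as factors over all 9 means 49 passed, and with 12 samples and the air pool as a random block 220 (86 of the 88). The low dose alone gave 10, the high dose alone 17, the mean of whichever dose has a value 45, and a size of at least 1.5-fold 34. Leaving out 1 replicate (a number of weeks) or the low-dose sample of 2 weeks and 6 hours, an alternative chosen after seeing the data, gave 1 to 68 genes. With 2 differences 1 residual degree of freedom remains. The dose comparison gave 0 to 1 gene when a replicate was left out, the 1 being Csrp3 without 2 weeks. Signal over background is unknown. Some named genes that did not pass changed sign between settings: at the low dose alone Ccl2 stood at 0.18, Hspa1a at 0.02 and Fos at 0.05, at the high dose alone Cyp1b1 at 0.05, Lcn2 at -0.08 and Mt1 at -0.03, and with samples centred and scaled Fos at 0.01 and Lcn2 at -0.13. With a replicate left out, the values ranged from -0.50 to 0.01 for Plk1, -0.28 to 0.01 for Ccl2, -0.18 to 0.12 for Hspa1a, -0.12 to 0.06 for Cyp1b1, -0.11 to 0.15 for Fos, -0.18 to 0.08 for Lcn2 and -0.20 to 0.68 for Actc1. The cause was not tested.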

Other observations

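Probes without a gene name were tested beside the named ones. Of 914 such probes with all 12 values, 6 rose and 5 fell between 6 and 20 hours in limma's test with every probe on its own, where 77 of 4835 probes passed in all.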
